A study of Arabidopsis thaliana with 9 samples.

Results

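Transcript levels were described in roots of wild-type Arabidopsis thaliana, accession Col-0, at 2 weeks of age. The study hybridised RNA of 9 root samples to Affymetrix arrays, and the 3 Col-0 arrays are the ones used here. The Col-0 plants carried no mutation and received no treatment according to the labels. They were raised on upright plates of agar with sucrose and the nutrient solution MGRL. The labels do not say whether the 3 arrays came from separate cultures, so the spread between them may be technical. Of 38408 probe sets on the array, 16722 are paired with 1 gene in the platform annotation, and the brightest probe set of each gene gave 16548 measured genes. A family was described when at least 10 of its members were measured, which left 29 families with 660 genes. Members of nuclear families were found by gene symbol or synonym, and organelle genes by the genome that carries them. Since 14755 of the 16548 genes carry a locus number as their name, nuclear members without a symbol or synonym are not counted. The order of nuclear families holds among genes so named.

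A root at this age holds dividing, elongating and mature zones, with epidermis, cortex, endodermis and vascular tissue in concentric layers. It takes up nitrate and other ions, loosens its walls as cells elongate, and stores defence compounds against soil organisms. Its plastids are mostly colourless and do little photosynthesis, but they keep their own genome, as the mitochondria do. Families of flower, pollen and seed proteins serve other organs.

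Levels are log2 values on the scale of the robust multi-array average (RMA), where 1 unit is a 2-fold difference in signal. The median gene had a level of 4.46, with quartiles of 2.97 and 6.59 and a range of 1.87 to 12.90. A level of at least 10 was reached by 259 genes (1.57%), and 4302 genes (26.0%) lay under 3. Probe sets differ in how strongly they bind, so an order of levels is an order of array signal and not of transcript number. No detection calls were used, and a level near 2 to 3 cannot be told apart from background. In whole roots, fewer cells of a type and less RNA per cell cannot be told apart either. The 3 arrays had similar medians over all probe sets, at 4.62, 4.59 and 4.61. RMA makes the distributions of arrays alike, so these medians do not show how alike the samples were. The median SD of a gene over the 3 arrays was 0.122 log2 units. Of the 100 brightest probe sets, 85 have no gene in the annotation, so the ranks below hold among the measured genes.

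Markers of root tissues were checked first. EXPA7 and EXPA18, expansins of root hair cells, had levels of 6.76 ± 0.12 and 7.78 ± 0.19 (SD, n = 3). JKD, a zinc finger factor of the ground tissue, stood at 8.39 ± 0.08, and the other cortex markers were AT1G09750 at 7.19, AT1G62510 at 5.06 and AT1G62500 at 3.10. The 5 measured endodermis markers of 14 listed lay between 6.20 and 8.59: AT1G61590 at 8.59, AT3G55230 at 8.11, AT1G14580 at 6.50, AT2G39430 at 6.47 and AT4G13580 at 6.20. FACT, which joins caffeic acid to fatty alcohols in root waxes, had 8.83 ± 0.05, and the second measured suberin marker, AT2G48130, had 9.44 ± 0.04. Both pollen markers measured were low, VGD1 at 2.71 ± 0.21 and VGDH1 at 3.17 ± 0.23. Both leaf markers measured, of 12 listed, were above the median gene. RCA, the activase of the carbon-fixing enzyme Rubisco, had 6.99, 6.76 and 6.81 on arrays 1 to 3, and LHCB4.1, a light-harvesting protein, had 6.85, 6.54 and 7.11. For xylem, phloem, root cap, meristem, non-hair epidermis, flower and seed storage, no listed marker was measured.

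**Figure D1:**
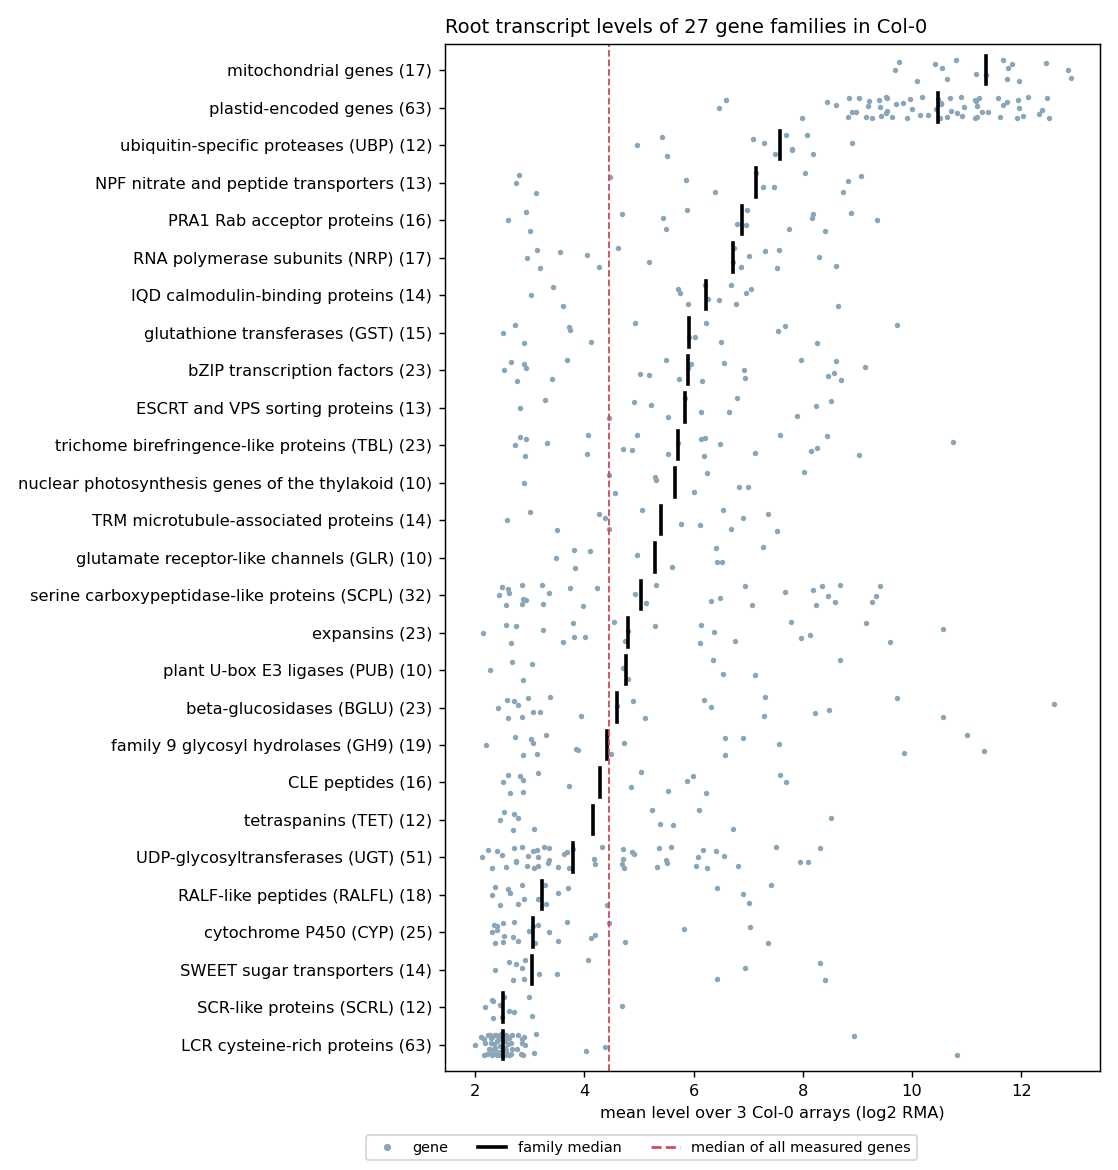
Mean level (log2 RMA, horizontal axis) of every counted gene of 27 families, with the number of members in parentheses. Each point is 1 gene, the black bar is the family median and the dashed line is the median of all 16548 measured genes at 4.46. The organelle genes sit apart at the top with medians of 11.36 and 10.48, and LCR and SCRL genes crowd at the bottom with single members far to the right.

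The highest family was the mitochondrial genes. Their median level was 11.36 ± 0.04 (SD of the array medians, n = 3), against 4.46 ± 0.01 for all measured genes, and all 17 members were among the highest 10% of genes. Here and below, a family's median is that of its gene means, so the array medians need not centre on it. nad1, a subunit of respiratory complex I, was the highest measured gene of all, with 12.91, 12.91 and 12.88 on arrays 1 to 3. These are values of the brightest of its 7 probe sets, and with the mean of a gene's probe sets the family median was 11.17. cox1, the catalytic subunit of cytochrome c oxidase, had 12.84, 12.87 and 12.85, and nad4L, also of complex I, had 12.41, 12.50 and 12.43. The arrays lay within 0.1 log2 units of each other for each of these 3 genes. The lowest members were still far above the median gene. The cytochrome c maturation genes ccb206 and ccb382 had 10.08 ± 0.03 and 9.68 ± 0.05, and matR, a maturase for intron splicing, had 9.76 ± 0.02. The mitochondrial genes also varied least between arrays, with a median SD of 0.030, against 0.122 for all genes. Bright genes vary less in general: among the highest 10% of genes the median SD was 0.067. Relative to genes of the same level, the median SD of the mitochondrial genes was 0.45 times as large.

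A part of chromosome 2 near the centromere is known to carry a copy of mitochondrial DNA, and its loci entered the list of brightest genes too. AT2G07741 had 12.86 ± 0.00, AT2G07707 had 12.14 ± 0.04 and AT2G07722 had 11.98 ± 0.02. For AT2G07707 and AT2G07722 these are the brightest of 2 and 3 probe sets. The 46 measured loci numbered AT2G076 and AT2G077 ran from 2.33 to 12.86 with a median of 8.83. Transcripts of these loci and of the mitochondrial copies cannot be told apart here. The gene listed as rpl2 had 12.63 ± 0.04 and was counted in neither organelle, because the annotation does not say which genome it belongs to.

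Plastid-encoded genes came second, with a median level of 10.48 ± 0.06 over 63 genes, and 60 of the 63 were among the highest 10% of all measured genes. Every plastid gene measured was above the median gene. atpH, the ring subunit of the plastid ATP synthase, had 12.53, 12.43 and 12.54 on arrays 1 to 3. rpl14, a ribosomal protein, had 12.51, 12.49 and 12.43, and psbA, the D1 protein of photosystem II, had 12.37, 12.35 and 12.42. The 3 arrays lay within 0.11 log2 units of each other for each. Others among the 20 brightest genes were rpl20 of the ribosome at 12.33 ± 0.03, psaB of photosystem I at 12.11 ± 0.07 and petG of the cytochrome b6f complex at 12.03 ± 0.06.

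Grouped by complex, medians were 11.18 for the 4 ATP synthase genes, 11.16 for the 5 genes of photosystem I, 10.69 for the 6 of cytochrome b6f and 10.63 for the 13 of photosystem II. Ribosomal protein genes had a median of 10.50 over 13 genes. The 8 genes of other functions, among them rbcL of Rubisco and the acetyl-CoA carboxylase gene accD, had a median of 11.05. The lowest groups were the 4 RNA polymerase genes at 9.49 and the 10 genes of the NDH complex, which moves electrons around photosystem I, at 9.47. Photosystem II spanned the widest range, since it held psbA and also the lowest plastid genes: psbT at 6.47 ± 0.10 and psbM at 6.60 ± 0.17. rps16, a ribosomal protein gene, was next lowest at 7.99 ± 0.09.

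**Figure D2:**
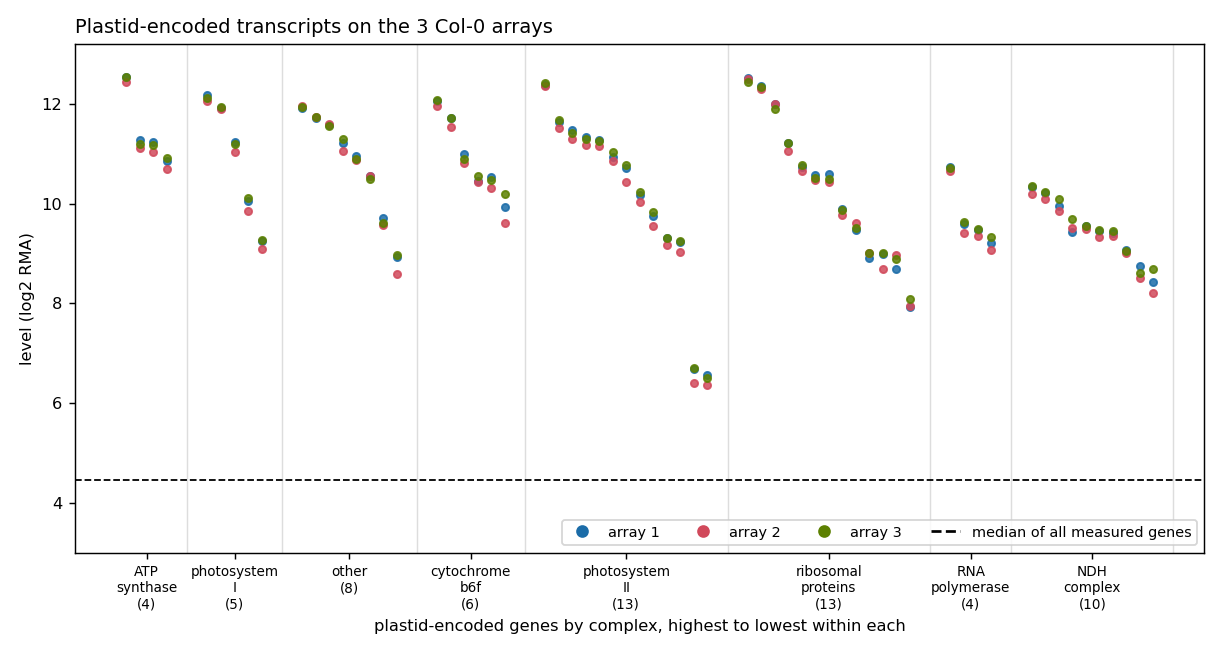
Level of each of 63 plastid-encoded genes on arrays 1, 2 and 3 (log2 RMA, vertical axis), grouped by complex and ordered by mean within each group. All 63 lie above the dashed line at 4.46, the median of all measured genes, and array 2 is the lowest of the 3 points for 52 of them.

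Among families encoded in the nucleus, the ubiquitin-specific proteases (UBP), which remove ubiquitin from proteins, had a median of 7.59 ± 0.02 over 12 genes and none in the lowest 25% of genes. UBP23, UBP24 and UBP25 stood at 8.91 ± 0.02, 8.18 ± 0.10 and 8.08 ± 0.03. The low end was UBP22 at 4.97 ± 0.23, UBP27 at 5.42 ± 0.19 and UBP26, which acts on histone H2B, at 5.51 ± 0.21.

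The NPF transporters, which move nitrate, peptides and glucosinolates, had a median of 7.14 over 13 genes. Their medians on the single arrays were lower, at 7.11, 7.06 and 7.02. GTR2, a glucosinolate importer, was highest with 9.08, 9.10 and 9.03 on arrays 1 to 3. NAXT1, which excretes nitrate from roots, had 8.80, 8.83 and 8.83, and AT1G59740 (NPF4.3) had 8.86, 8.41 and 8.94. The arrays agree within 0.1 log2 units for GTR2 and NAXT1, whereas array 2 was apart for NPF4.3. The 3 lowest members were AT3G25280 (NPF4.2) at 3.11, AT1G27040 (NPF4.5) at 2.81 and AT3G25260 (NPF4.1) at 2.75.

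The PRA1 proteins, which bind Rab GTPases in membrane traffic, had a median of 6.88 ± 0.02 over 16 genes and the second smallest spread, with a median SD of 0.050. PRA1.B6 stood at 9.36 ± 0.04, PRA1.A2 at 8.89 ± 0.02 and PRA8 at 8.41 ± 0.02. PRA1.E, PRA1.C and PRA1.F1 were low, at 3.01 ± 0.09, 2.93 ± 0.15 and 2.61 ± 0.23.

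Of the 20 highest genes, 6 were plastid-encoded, 4 mitochondrial, 3 from the loci of chromosome 2 described above and 7 from elsewhere, rpl2 included. The fourth mitochondrial gene, nad5 of complex I, stood at 11.96 ± 0.03 by the brighter of its 2 probe sets. The highest nuclear gene outside chromosome 2 was PYK10 (AT3G09260), the main beta-glucosidase of ER bodies, which are compartments of the endoplasmic reticulum in root and seedling cells of the mustard family. PYK10 had 12.60, 12.66 and 12.54 on arrays 1 to 3. PRXR1 (AT4G21960), a secreted class III peroxidase, had 12.30, 12.38 and 12.27. Array 2 was highest for both, and the 3 arrays lay within 0.12 log2 units. AT3G48140 at 12.28 ± 0.04, AT2G43150 at 12.11 ± 0.04, AT4G29410 at 12.08 ± 0.04 and AT4G16720 at 11.97 ± 0.04 complete the list and have no gene name in the annotation used.

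The genes of ER bodies were then set out together, a list of 14 chosen after the values were seen, of which 10 were measured. NAI2, needed to form ER bodies, had 11.49, 11.65 and 11.52 on arrays 1 to 3. BGLU21 and BGLU22, relatives of PYK10, had 10.56 ± 0.09 and 9.72 ± 0.07. The lectins that gather around PYK10 when tissue is broken ranged widely, from JAL34 at 10.11 ± 0.04 and JAL22 at 8.17 ± 0.07 to JAL31 at 7.13 ± 0.15, JAL33 at 5.76 ± 0.07 and JAL23 at 2.75 ± 0.18. NAI1, the transcription factor known to control these genes, had 6.08, 6.19 and 5.67, with array 3 lowest. In all, 6 of the 10 were among the highest 10% of measured genes, and JAL23 alone was below the median gene.

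The named nuclear genes that came next after PYK10 and PRXR1 were taken in order, a choice also made after the values were seen. NAI2 was the first of these 10. COB, a membrane-anchored protein that orients cellulose in elongating root cells, stood at 11.50 ± 0.04, and PHOS34, a protein phosphorylated in defence responses, at 11.38 ± 0.02. GH9B13 and GH9C2, endoglucanases of the cell wall, had 11.31 ± 0.07 and 11.01 ± 0.21. APA1, an aspartic protease of the vacuole, had 11.19 ± 0.04, and ATRBP45C, an RNA-binding protein, had 11.03 ± 0.04. TMT1, a sugar transporter of the vacuole membrane, had 10.97 ± 0.07, OSM34, an osmotin-like defence protein, had 10.96 ± 0.12, and MAB1, a subunit of mitochondrial pyruvate dehydrogenase, had 10.84 ± 0.06. GH9C2 was the most spread of these genes, with 11.16, 11.09 and 10.77 on arrays 1 to 3.

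Families of the cell wall and of beta-glucosidases spread over most of the range of levels, as their members show, chosen after their values were seen. The expansins, which loosen walls, had a median of 4.80 over 23 genes, and ran from EXPB3 at 10.56 down to EXP26 at 2.15 ± 0.19. Of the 23, 4 were among the highest 10% of measured genes and 4 in the lowest 25%. The family 9 glycosyl hydrolases had a median of 4.41 over 19 genes and ran from 2.20 to 11.31, with 3 in the highest 10% and 3 in the lowest 25%. The beta-glucosidases, with a median of 4.60 over 23 genes, ran from 2.43 to 12.60, with 5 and 7 genes in these classes. The trichome birefringence-like proteins, which acetylate wall polymers, had a median of 5.72 over 23 genes, with 5 and 4 genes in these classes and TBL36 highest at 10.74 ± 0.03.

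The lowest family was the LCR group of small secreted cysteine-rich proteins, related to defensins and mostly known from reproductive tissues. Its median was 2.51 ± 0.04 over 63 genes, and 57 of them were in the lowest 25% of all genes. LCR48 had 2.04, 1.97 and 1.97 on arrays 1 to 3, and LCR43 and LCR42 averaged 2.11 ± 0.13 and 2.16 ± 0.09. LCR69 and LCR68, which the reference also lists as the defensins PDF2.2 and PDF2.3, were far from the rest. LCR69 had 10.71, 10.88 and 10.89, and LCR68 had 8.89, 9.08 and 8.83. They exceeded the third member, LCR37 at 4.37 ± 0.13, by over 4 log2 units.

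The SCR-like proteins (SCRL), named for the pollen coat protein of self-incompatibility, had a median of 2.52 ± 0.09 over 12 genes. SCRL26 was highest with 4.63, 5.03 and 4.38, followed by SCRL25 at 3.05 ± 0.22 and SCRL20 at 2.98 ± 0.17. SCRL23, SCRL16 and SCRL21 closed the family at 2.32 ± 0.05, 2.31 ± 0.02 and 2.18 ± 0.01.

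The SWEET sugar transporters had a median of 3.04 ± 0.09 over 14 genes. The 3 highest are transporters of the vacuole membrane: SWEET2 with 8.51, 8.29 and 8.42 on arrays 1 to 3, SWEET16 with 8.26, 8.37 and 8.31, and SWEET17 with 7.06, 7.01 and 6.77. SWEET7, SWEET6 and SWEET3 were lowest at 2.69 ± 0.17, 2.62 ± 0.15 and 2.36 ± 0.04. The measured cytochrome P450 genes, mostly of the CYP71B group, had a median of 3.07 ± 0.03 over 25 genes. Those with the highest levels were CYP71B6 at 7.36 ± 0.06, CYP71B29 at 7.03 ± 0.15 and CYP71B34 at 5.83 ± 0.38. CYP71B16, CYP71B31 and CYP71B24 lay between 2.31 and 2.36. Members without a named probe set were not analysed here.

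The RALF-like peptides (RALFL), small secreted signals that bind receptor kinases of the FERONIA type, had a median of 3.22 ± 0.09 over 18 genes, and 8 of them were in the lowest 25% of all genes. RALFL32 was highest at 7.41 ± 0.07. RALFL34 had 7.05, 7.21 and 6.76 on arrays 1 to 3, and RALFL31 had 6.92, 6.74 and 7.04. Array 2 was highest for RALFL34 and lowest for RALFL31. RALFL20, RALFL26 and RALFL30 were lowest at 2.46 ± 0.28, 2.36 ± 0.17 and 2.31 ± 0.17.

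The lowest single genes were LURE1.2 and LURE1.4, peptides that the ovule releases to attract pollen tubes. LURE1.2 had 1.93, 1.88 and 1.80 on arrays 1 to 3, and LURE1.4 had 2.15, 1.88 and 1.73. LCR48 followed at 1.99 ± 0.04. PXMT1, a methyltransferase, stood at 2.03 ± 0.05. The remaining 6 of the 10 lowest were AT2G26620, AT1G57777, AT4G35165, AT4G22513, AT5G08055 and AT1G27890, between 2.00 and 2.05. No value separates these genes from background.

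**Figure D3:**
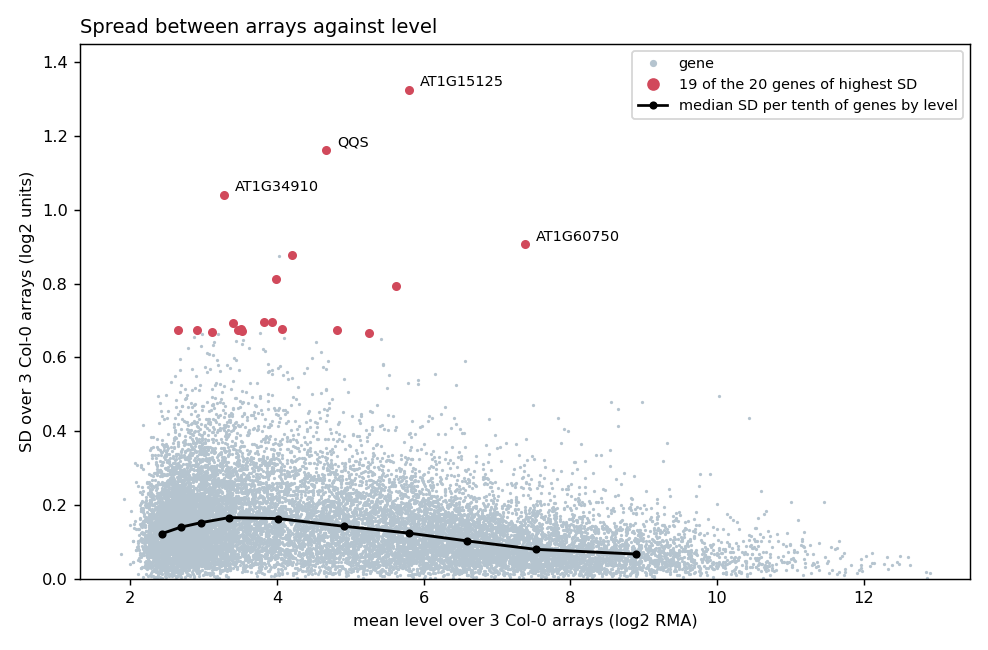
SD over the 3 Col-0 arrays (log2 units, vertical axis) against mean level (log2 RMA, horizontal axis) for 16548 genes. Each grey point is 1 gene, red points are 19 of the 20 genes of highest SD and the black line joins the median SD of the genes in each of 10 equal classes of level; the line peaks at 0.166 in the fourth class and falls to 0.067 in the highest.

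Spread between arrays depended on level, which bears on which genes and families appear variable. The median SD was 0.122 in the lowest of 10 equal classes of level, 0.166 in the fourth and 0.067 in the highest. An SD over 0.5 was found for 113 genes (none in the highest class of level), and 3 genes had an SD over 1. Of the 20 genes with the highest SD, 14 lay below the median level.

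AT1G15125 varied most, with 5.20, 4.87 and 7.32 on arrays 1 to 3 and an SD of 1.33. QQS, a gene found only in Arabidopsis and known to affect starch content, had 3.48, 5.80 and 4.73, an SD of 1.16. AT1G34910 had 2.71, 2.66 and 4.49, an SD of 1.04. Array 3 stood high for the first and the third of these genes, while QQS was different on all arrays. AT1G60750 was the brightest of the variable genes and was high on array 1, with 8.42, 6.97 and 6.75. AT3G12900 had 6.23, 5.92 and 4.72, with array 3 lowest.

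A further 14 genes of this list had SDs between 0.67 and 0.88. They were AT3G22142, AT1G27020, AT1G33100, AT3G55810, AT4G00651, AT3G24516, AT4G38780, AT3G28243, AT1G66640, AT3G44080, AT5G19890, AT2G02650, AT2G08986 and AT2G34655. Array 3 was the one that stood apart on the high side for 9 of the 20 genes (45%) and for 37 of the 113 genes with an SD over 0.5 (32.7%), against 18.5% of all measured genes.

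**Figure D4:**
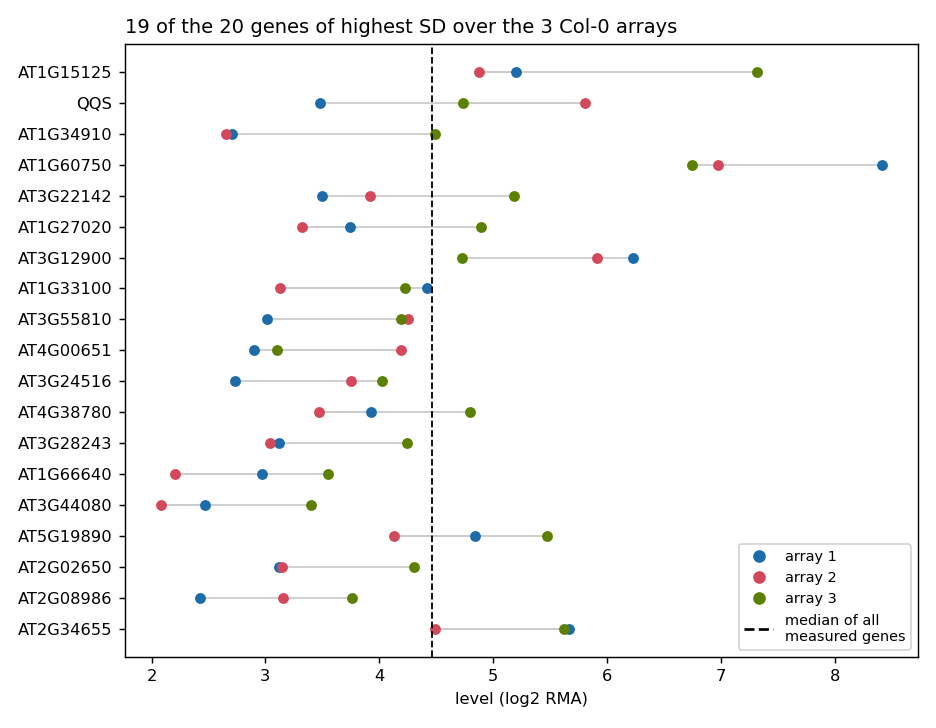
Level on each array (log2 RMA, horizontal axis) of 19 of the 20 genes with the highest SD, the most variable at the top. Points are arrays 1 to 3, the dashed line is the median of all measured genes at 4.46; AT1G15125 spans 4.87 to 7.32 and QQS 3.48 to 5.80.

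The most variable family by median SD was the RALF-like peptides. Their median SD was 0.194 over 18 genes, against 0.122 for all measured genes. Most members were dim, with a family median level of 3.22, and RALFL19, at a mean of 2.61, cannot be told apart from background. The brightest members, RALFL32, RALFL34, RALFL31 and RALFL22, had SDs of 0.07, 0.23, 0.15 and 0.07. RALFL19 had 2.16, 2.74 and 2.93 on arrays 1 to 3, RALFL18 had 4.30, 4.13 and 4.79, and RALFL24 had 3.08, 3.65 and 3.10. Array 3 was highest for RALFL19 and RALFL18, and array 2 for RALFL24. Relative to genes of the same level, the median SD of the family was 1.50 times as large. First place rested on arrays 2 and 3. Without array 2 the median SD was 0.103, against 0.096 for all genes, and the expansins led with 0.160. Without array 3 it was 0.123, against 0.095, and nuclear photosynthesis genes led with 0.176. Without array 1 it was 0.209, the highest of the families.

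The ESCRT and VPS proteins, which sort membrane cargo into the vacuole, followed with a median SD of 0.168 over 13 genes at a median level of 5.85. That value was 0.099 without array 1 and 0.098 without array 3, close to the 0.100 and 0.095 of all genes. VPS20.1 had 5.71, 6.11 and 5.72, VPS60.2 had 5.11, 4.73 and 4.86, and VPS60.1 had 6.75, 6.76 and 6.43. No array was the odd one in all 3 genes, and none of the 13 genes was among the 5% of highest SD. The beta-glucosidases had a median SD of 0.158 over 23 genes, led by dim members: BGLU31 with 2.61, 3.33 and 2.96, BGLU29 with 2.95, 2.47 and 2.95, and BGLU45 at 3.95 ± 0.29. The bright members PYK10, BGLU21 and BGLU22 had SDs of 0.06, 0.09 and 0.07.

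The UDP-glycosyltransferases (UGT), which attach sugars to hormones and secondary metabolites, had a median SD of 0.155 over 51 genes, with 6 among the 5% of highest SD. Relative to genes of the same level, the median SD was 1.11 times as large. UGT73B4 had 7.19, 6.48 and 6.01 on arrays 1 to 3, UGT73B2 had 5.91, 5.05 and 5.14, and UGT85A7 had 2.40, 3.24 and 2.47. Array 1 was highest for both UGT73B genes. The rest of that subgroup, looked up after these values were seen, had the same highest array: UGT73B3 with 5.38, 4.85 and 4.47, UGT73B5 with 6.07, 5.21 and 5.48, and UGT73B1 at 6.18 ± 0.19. Array 1 was highest in 43.1% of the UGT family and 32.3% of all measured genes. The 5 UGT73B genes were gathered because 2 of them showed this order. These are closely related sequences, so their probe sets may share signal, which was not tested. The glutamate receptor-like channels (GLR), which pass calcium, had a median SD of 0.154 over 10 genes, 1.21 times as large relative to genes of the same level. GLR2.7 had 4.11, 3.34 and 3.99, GLR2.3 had 7.12, 6.99 and 7.68, and ATGLR1.2 had 3.93, 3.56 and 4.01. These 3 were lowest on array 2 and were the only members of the 10 that were (30.0%, against 34.8% of all measured genes), while 5 of the 10 were lowest on array 3.

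Nuclear photosynthesis genes of the thylakoid, which encode parts of the photosystems, light-harvesting complexes and ATP synthase, had a median SD of 0.162 over 10 genes, at a median level of 5.65. Relative to genes of the same level, the median SD was 1.14 times as large. PSBW and PSB27, proteins of photosystem II, had 7.01, 6.65 and 7.36 and 6.29, 5.93 and 6.51 on arrays 1 to 3, and LHCB4.1 had the values given above. All 3 had the same order, with array 2 lowest and array 3 highest. In the family, 7 of 10 genes were lowest on array 2 (70.0%), against 34.8% of all measured genes, and none was lowest on array 1. Families without a role in photosynthesis were often lowest on array 2 too. Among these were 7 of 12 tetraspanins (58.3%), 12 of 23 trichome birefringence-like proteins (52.2%) and, in a smaller family, 5 of 8 subtilases (62.5%).

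The plastid-encoded genes had the same low array. Array 2 was lowest for 52 of 63 (82.5%), including all 13 genes of photosystem II, all 5 of photosystem I, all 6 of cytochrome b6f, all 4 of the ATP synthase, all 4 of the RNA polymerase and 9 of 10 of the NDH complex, but 7 of 13 ribosomal protein genes and 4 of the 8 genes of other functions. The size was small: array 2 lay on average 0.082 log2 units below a plastid gene's mean, and arrays 1 and 3 lay 0.031 and 0.051 above it. The mitochondrial genes did not share it, with 4 of 17 lowest on array 2. After quantile normalisation of the 3 arrays, 55 of the 63 plastid genes and 7 of the 10 nuclear genes were lowest on array 2. Both measured leaf markers of the 12 listed, RCA and LHCB4.1, which is itself one of the nuclear genes, were lowest on array 2 as well, and the part of leaf tissue in this was not tested.

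Among families with at least 10 measured members, the expansins and family 9 glycosyl hydrolases were most often lowest on array 3. Array 3 was lowest for 13 of 23 expansins (56.5%) and 11 of 19 glycosyl hydrolases (57.9%), against 31.8% of all measured genes. Other families came close: 8 of 15 glutathione transferases (53.3%), 7 of 14 SWEET genes (50%) and 5 of 10 GLR genes (50%) were also lowest there. Some smaller families had larger shares: 5 of 7 WRKY factors (71.4%), 6 of 9 NET actin-binding proteins (66.7%) and 3 of 5 jacalin-related lectins (60%). EXPA15, chosen after its values were seen, had 8.40, 8.29 and 7.72. Its SD was 0.37.

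**Figure D5:**
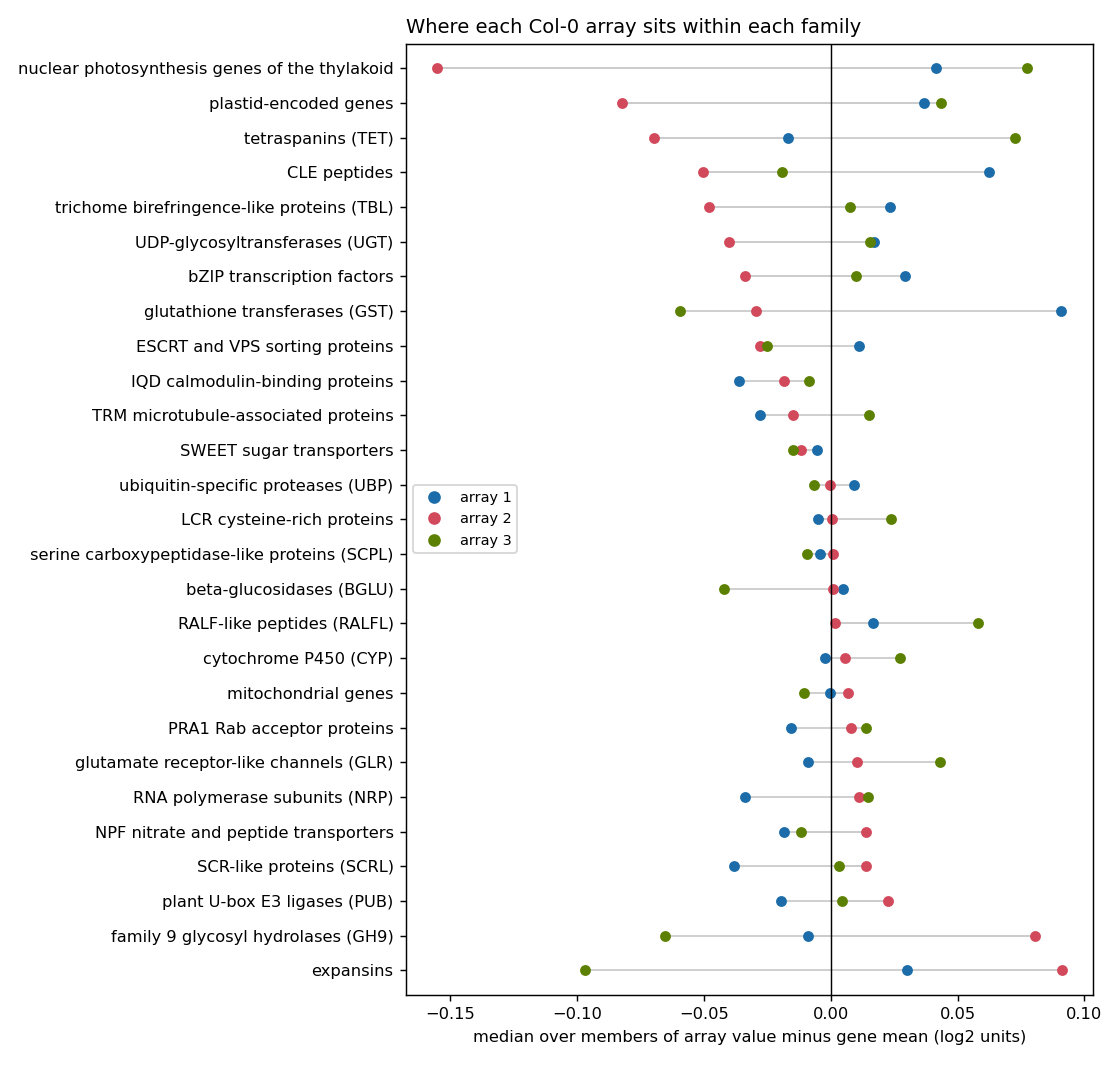
Median over the members of each of 27 families of the array's value minus the gene's mean (log2 units, horizontal axis), for arrays 1, 2 and 3, with families ordered by array 2. Array 2 lies farthest left in the nuclear photosynthesis genes (-0.155) and plastid-encoded genes (-0.082) and farthest right in the expansins and family 9 glycosyl hydrolases, where array 3 is lowest.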

How the data were processed

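The values analysed are log2 expression values that the authors deposited, and the submitters' processing notes name RMA, a method that removes background, makes the arrays' distributions alike and turns the probes of a probe set into 1 value. Which arrays were normalised together, and the version, are not stated by the labels. The 6 columns of the other samples were not used. Probe sets were named from the platform annotation, 759 paired with several genes were left out, and 16540 of 16548 genes matched the reference table (assembly TAIR10.1), which gave symbols and chromosomes. Of the genes, 148 had several probe sets, and the brightest was taken. From the brightest to the dimmest probe set of such a gene, the gap had a median of 1.03 and a maximum of 8.04 log2 units.

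Means, SDs over 3 arrays and family medians were computed with Python 3.11.15 and pandas 2.3.3 and drawn with matplotlib 3.10.9; the SD step was tested on simulated data. The design has 1 group, so nothing was tested. Arrays give no read depth, and their number limits the precision.

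Nuclear families were found by symbol or synonym and organelle genes by genome. Genes that share letters with a family but belong elsewhere by their synonyms (peptide deformylases under PDF, a tRNA modification gene under TRM) were left out. Named genes were the 20 highest, 10 lowest and 20 most variable, the 3 members at each end of the 6 highest and 6 lowest families, the 3 of highest SD in the 6 most variable families, and all measured markers; any other is marked in the text. The results of 2 of these families and of 1 of the most variable genes are not reported here. Members and lists were chosen with earlier results of these data known. Alternatives covered the probe set per gene, shared probe sets, scaling, the family mean, family size, level and each array left out.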

Additional observations from a re-analysis of the deposited data

How the results depend on the processing

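Results were recomputed under each alternative and compared by how many families or genes remained. All 6 highest families remained under another choice of probe set, with shared probe sets, after quantile normalisation, with family means and without any 1 array; with families of at least 5 members, 4 of 6 did, as aldehyde dehydrogenases and WRKY factors entered. Of the 6 lowest families, 2 remained with families of at least 5 members. Of the 6 most variable families, 5 remained under another choice of probe set and with shared probe sets. After quantile normalisation 4 remained, without the nuclear photosynthesis genes and beta-glucosidases, and with family means also 4. With at least 5 members 1 remained, and 3 with SD taken relative to level. Among genes of level 6 or more 1 remained, but the level limit took the others below 10 members, so that count was set by the limit. Relative to level, the UDP-glycosyltransferases, glutamate receptor-like channels and nuclear photosynthesis genes were lost. RNA polymerase subunits, expansins and tetraspanins entered in their place. Leaving out an array left 3 to 4. Of the 20 most variable genes, 7 remained relative to level and 6 to 12 without 1 array, fewest without array 3. Among genes of level 6 or more 1 remained, the only one of the 20 at that level, so that count was also set by the limit. Of the 10 lowest genes, 5 to 7 remained without 1 array, and of the 20 highest, 19 to 20. With the mean of a gene's probe sets, 17 of the 20 highest remained. Leaving the level limit aside, the order of variable families and of the lowest genes is therefore less firm than that of the highest, at 3 arrays. No paired analysis was possible because no groups were compared. The array counts of the plastid, nuclear photosynthesis, expansin and glycosyl hydrolase families after quantile normalisation were added after the data were examined.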

Other observations

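Some families with fewer than 10 measured members also stood out. Aldehyde dehydrogenases had a median level of 8.19 over 8 genes, with ALDH2C4, which oxidises phenylpropanoid aldehydes, at 10.02 ± 0.08. Of 7 measured WRKY factors, WRKY6 and WRKY29, known from defence and senescence, had 9.18 ± 0.17 and 8.82 ± 0.19, and the family median was 8.04. Exocyst subunits, which tether secretory vesicles, had a median of 7.42 over 9 genes, all between 5.89 and 8.29. Xyloglucan endotransglucosylases, which rejoin wall polymers, had a median SD of 0.261 over 9 genes at a median level of 4.15, and their SD was 1.87 times that of genes of the same level. The ATG8 proteins of autophagy ran from ATG8F at 9.96 ± 0.03 to ATG8D at 5.19 ± 0.22 over 9 genes. The plant defensins with PDF names had a median level of 2.73 over 8 genes, with PDF2.5 far above the others at 9.34, 9.46 and 9.38 on arrays 1 to 3 and PDF2.1 next at 3.28 ± 0.11. All of these were chosen after their values were seen.

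Among genes of level 6 or more, 4 were picked out after their values were seen. ZIP9, a metal transporter, had 6.60, 7.38 and 6.95 on arrays 1 to 3, and ARL, a growth regulator, had 6.23, 5.87 and 6.79. AT2G01023 was bright and spread, with 10.10, 9.51 and 10.49, and so was AT2G36255, with 10.09, 10.93 and 10.30.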
